A study of Mus musculus with 6 samples.

Results

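Immediate early genes are transcribed within minutes of a growth factor, cytokine, hormone or stress signal, without new protein synthesis. The 10 studied here are Egr1, Egr2, Egr3, Nr4a1, Nr4a2, Ier2, Ier3, Dusp1, Klf6 and Zfp36. They were taken by symbol, with earlier results of these data known, and all 10 were found among the 54146 gene rows of the count tables. All 10 were among the 19900 genes with enough counts to be tested. The tables come from tumors of 4T1, a mouse mammary carcinoma line, and 3 libraries labelled wild type were compared with 3 labelled Ki-67-KO, whose cells have the genotype Mki67-/- and lack the proliferation antigen Ki-67. Cells of both groups were grown in culture and then grafted into mammary fat pads of athymic nude mice, and tumors were taken after 3 weeks. The age and sex of the mice, the number of knockout clones and any pooling of mice are not given in the labels, so a difference between clones and an effect of the knockout cannot be told apart. Nothing in the labels says that replicates came from separate mice, so p-values measure the spread between these libraries. The tumor line and its host are both mouse, so that reads of tumor and host cells are counted together, and in bulk RNA a change in the number of cells of a type cannot be told apart from a change in RNA per cell.

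In the usual scheme, a growth factor receptor acts through Ras and the ERK kinases on serum response factor and its ternary complex partners, which sit on CArG boxes near Egr and Fos genes. Signals that raise cAMP or calcium act through CREB on cAMP response elements, a known route to the Nr4a genes. Several products then feed back, since Dusp1 dephosphorylates MAP kinases and Zfp36 speeds the decay of cytokine and immediate early mRNAs.

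Sequences upstream of start sites were available for 7 of the 10 genes, from RefSeq on GRCm38.p6. The 250 bases before the start site used for each gene were searched on both strands. Those of Egr2, Nr4a1, Nr4a2 and Dusp1 are shown because they hold the CArG box, cAMP response and Egr motifs described next. All are written 5′ to 3′ on the strand of the gene. Capitals mark a CArG box, the Egr site GCGNGGGCG, the cAMP response element TGACGTCA or its 5-base core TGACG, on either strand. The full element holds the core on each strand. The Egr2 window is chr10:67537619-67537868, plus strand, Nr4a1 is chr15:101266596-101266845, plus strand, Nr4a2 is chr2:57124004-57124253, minus strand, and Dusp1 is chr17:26508473-26508722, minus strand. For Zfp36 only the 30 bases around its CArG box are shown, chr7:28379267-28379296, minus strand.
Egr2: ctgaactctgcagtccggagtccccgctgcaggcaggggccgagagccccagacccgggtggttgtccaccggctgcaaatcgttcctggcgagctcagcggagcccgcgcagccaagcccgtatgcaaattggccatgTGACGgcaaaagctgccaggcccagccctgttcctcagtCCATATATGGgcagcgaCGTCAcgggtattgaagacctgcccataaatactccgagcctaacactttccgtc
Nr4a1: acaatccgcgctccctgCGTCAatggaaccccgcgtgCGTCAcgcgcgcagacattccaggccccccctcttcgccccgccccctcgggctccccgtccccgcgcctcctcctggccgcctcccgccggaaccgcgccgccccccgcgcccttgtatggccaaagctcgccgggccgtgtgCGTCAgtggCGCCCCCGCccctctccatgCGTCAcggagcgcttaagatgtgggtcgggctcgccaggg
Nr4a2: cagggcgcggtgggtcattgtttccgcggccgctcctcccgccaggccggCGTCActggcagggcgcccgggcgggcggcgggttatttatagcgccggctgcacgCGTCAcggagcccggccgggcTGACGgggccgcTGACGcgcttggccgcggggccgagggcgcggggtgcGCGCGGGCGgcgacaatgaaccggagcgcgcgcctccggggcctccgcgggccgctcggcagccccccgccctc
Dusp1: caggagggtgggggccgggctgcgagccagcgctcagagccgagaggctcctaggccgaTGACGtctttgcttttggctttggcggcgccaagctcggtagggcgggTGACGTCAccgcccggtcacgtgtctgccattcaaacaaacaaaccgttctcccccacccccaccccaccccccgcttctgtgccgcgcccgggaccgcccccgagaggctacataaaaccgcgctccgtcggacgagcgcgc
Zfp36: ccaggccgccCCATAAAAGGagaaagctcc

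The CArG box of Egr2 begins 72 bases before its start site at position 67537869 and that of Zfp36 begins 58 bases before its start site. RefSeq lists 5 start sites for Egr2, from 67535499 to 67537930. Only the window before 67537869 was searched, where the first-numbered GENCODE transcript of Egr2 begins. Windows before the start sites 67535499 and 67537566 end upstream of this CArG box. The set of all windows used below holds every listed start site of a gene. A CArG box stood in 2 of the 7 windows, where 1.47% of all 32851 windows of the same length in the RefSeq table hold one. Nr4a1 and Nr4a2 each held 4 cAMP response cores and 1 Egr site. The core stood in 4 of the 7 windows and in 17.8% of all windows. The Egr site stood in 3 of 7, the third being that of Zfp36, and in 4.70% of all. G and C made up 54.4% to 80% of the bases in the 7 windows, and the set of all windows was not matched for this. The full cAMP response element was found in Dusp1 alone among the 7, beginning 143 bases before the start site, and in 1.55% of all windows. The AP-1 site TGANTCA was in 0 of 7 windows and in 6.75% of all, and the TATA box letters TATAAA in 1 of 7 and in 12.4% of all. That 1 match, in the window of Nr4a2, lies on the strand opposite to the gene and begins 164 bases before the start site. These matches describe letters in a window and are no evidence of binding in these tumors. Egr1, Egr3 and Ier2 were not searched.

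**Figure D1:**
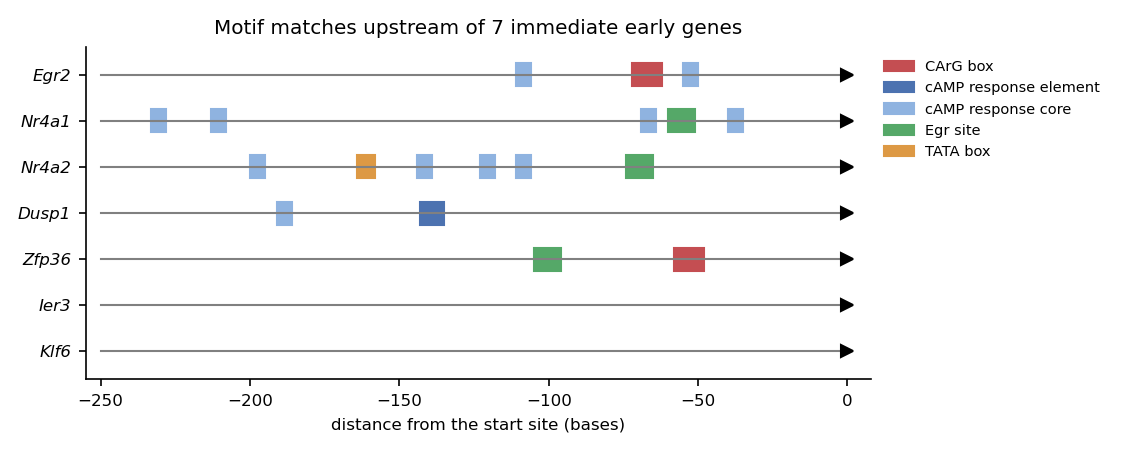
Motif matches in the 250 bases before the start site of 7 immediate early genes, by distance from the start site in bases, with boxes drawn to scale. Egr2 and Zfp36 hold a CArG box, and Zfp36 also holds an Egr site. Nr4a1 and Nr4a2 each hold 4 cAMP response cores and an Egr site, Dusp1 holds the full cAMP response element, and no box is drawn for Ier3 or Klf6.

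Levels are given as counts per 1000000 read pairs counted to genes (CPM), scaled between libraries by the TMM method. Changes are log2 fold changes of knockout against wild type from edgeR's quasi-likelihood test with its standard error (SE), and adjusted p is Benjamini-Hochberg adjusted over all 19900 genes, with a threshold of 0.05. Gene counts per library were 37065778 to 38399826 in the wild-type and 22081970 to 30772729 in the knockout group. Unmapped pairs made up 31.2% to 33.9% of pairs in the wild-type libraries, 30.8% in knockout replicate 1, 54.6% in replicate 2 and 52.7% in replicate 3. Mki67 itself fell 3.04-fold, with means of 360 CPM ± 34.9 and 118 CPM ± 19.9 (SD, n = 3 each; edgeR adjusted p = 6.79e-05), with no overlap between the groups.

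Of the 10 immediate early genes, 6 were higher in knockout tumors, namely Egr1, Egr2, Egr3, Ier2, Ier3 and Dusp1. None passed the test in the lower direction in edgeR, where 1 gene, Nr4a2, was lower at an unadjusted p under 0.05, and DESeq2 also called 6 higher and 0 lower. Of all genes tested, 36% were called, 17.6% as higher and 18.4% as lower in knockout tumors. The 10 genes had a median log2 fold change of 0.40, where that of all genes tested was 0.05. The median over all genes was 0.10 with library totals alone and 0.26 without a filter on low counts, where 41649 genes were tested. In every one of the 10 genes the knockout libraries lay wholly to one side of the wild-type libraries, above them for 9 and below them for Nr4a2. This was so for 50.5% of all genes tested, with knockout above in 24.5% and below in 26%. The number called higher was 3 without wild-type replicate 1 or wild-type replicate 2, 4 without wild-type replicate 3, 5 without knockout replicate 3, 6 without knockout replicate 2 and 8 without knockout replicate 1.

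**Figure D2:**
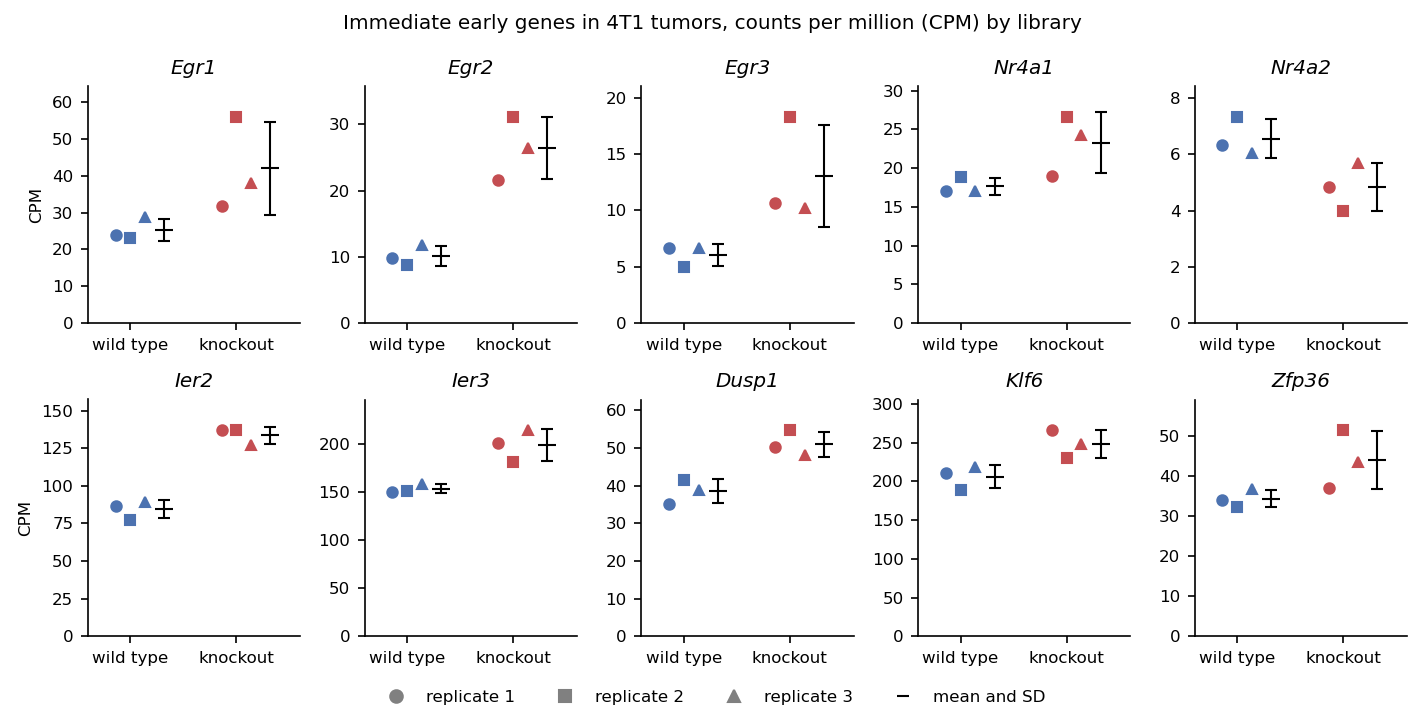
CPM of each of the 10 genes in every library, with 1 symbol per replicate and the mean and SD (n = 3) beside each group; each axis starts at 0. Knockout libraries lie above wild-type libraries in 9 panels and below them in the panel of Nr4a2, and knockout replicate 2 is the highest point for Egr1 (56.0 CPM), Egr2 (31.1 CPM) and Egr3 (18.3 CPM).

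Per kilobase of exons, which allows a rough comparison of different genes, Ier3 was the most abundant of the 10 in wild-type tumors, at 135 CPM per kilobase ± 4.10 (SD, n = 3). The length joins the exons of all annotated transcripts of a gene, so close places depend on which transcripts are expressed. Ier2 followed at 55.6 and Klf6 at 46.97 CPM per kilobase, then Dusp1 at 11.7, Zfp36 at 9.93, Egr1 at 5.65, Nr4a1 at 5.03, Egr2 at 2.99, Nr4a2 at 1.62 and Egr3 at 1.38. In this order the libraries of Egr1 and Nr4a1 overlapped, as did those of Nr4a2 and Egr3, and no other neighbours did. In knockout tumors the first 6 genes kept their places, with Ier3 at 176 and Egr1 at 9.37 CPM per kilobase. Egr2 came next at 7.78, ahead of Nr4a1 at 6.64, and Egr3 at 2.97 stood ahead of Nr4a2 at 1.19 CPM per kilobase. There, the libraries of each gene from Dusp1 to Nr4a1 overlapped those of its neighbour, while those of Nr4a1 and Egr3 and of Egr3 and Nr4a2 did not.

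The Egr genes encode zinc finger transcription factors that bind GC-rich sites and carry an early signal into a later wave of transcription. All 3 were higher in knockout tumors, and Egr2 and Egr3 had the largest estimates of the 10, here and in all 15 alternative analyses. Egr1 came next here, but behind Ier2 without knockout replicate 2, and behind Ier2, Ier3 and Dusp1 with the unmapped share as a covariate. With only libraries under 40% unmapped pairs, Egr1 was behind Ier2, Ier3, Dusp1 and Klf6. Egr2, also known for its part in myelination and in restraining T cell activation, was at 9.80, 8.82 and 11.8 CPM in wild-type replicates 1, 2 and 3 and at 21.6, 31.1 and 26.5 CPM in the knockout replicates. The lowest knockout library was thus well above the highest wild-type library. The means were 10.2 CPM ± 1.54 and 26.4 CPM ± 4.75 (SD, n = 3 each). The log2 fold change was 1.38 (edgeR, SE 0.17, adjusted p = 0.000458). Egr2 passed the test in all 15 alternative analyses, with log2 fold changes of 1.03 to 1.498. The gene lies at chromosome 10, 67535475 to 67542188, plus strand, in GRCm38.

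Egr3, which other Egr and calcium-dependent factors are known to induce, had 6.63, 4.93 and 6.63 CPM in wild-type, against 10.7, 18.3 and 10.2 CPM in knockout replicates 1, 2 and 3. Knockout replicate 2 stood well above the other knockout libraries, which were close to each other and still above all wild-type libraries. Its log2 fold change was 1.11 (SE 0.24, edgeR adjusted p = 0.00858), from a mean of 6.06 ± 0.98 to 13.1 ± 4.53 CPM (SD, n = 3 each), and 0.74 without knockout replicate 2 (adjusted p = 0.00726). When the unmapped share of each library entered as a covariate it was 0.82 and did not pass (adjusted p = 0.0628). Egr3 lies at chromosome 14, 70077203 to 70082614, plus strand.

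Egr1, the member of the family most widely used as a reporter of growth factor signalling, was at 23.99, 23.2 and 28.8 CPM in wild-type, against 31.8, 56.0 and 38.1 CPM in knockout replicates 1, 2 and 3. The groups stood 3.04 CPM apart at their nearest libraries, and the knockout libraries spread widely, with replicate 2 the highest. The means were 25.3 CPM ± 3.05 and 42.0 CPM ± 12.5 (SD, n = 3 each), or a log2 fold change of 0.73 (edgeR, with SE 0.20 and adjusted p = 0.0210). It was 0.42 without knockout replicate 2 (adjusted p = 0.0254), and leaving out wild-type replicate 1 or 2 ended the call (adjusted p = 0.103 and 0.0964). It was also lost when the unmapped share entered as a covariate, at 0.37 (adjusted p = 0.204), and with only the 4 libraries under 40% unmapped pairs, at 0.27 (adjusted p = 0.136). Egr1 lies on chromosome 18, 34859823 to 34864984, plus strand.

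Within a library, the ratio of Egr2 to Egr1 does not depend on how libraries are scaled. Per exonic length, it was 0.539, 0.502 and 0.542 in wild-type and 0.896, 0.733 and 0.917 in knockout replicates 1, 2 and 3. Every knockout library had more Egr2 per Egr1 than every wild-type library, with means of 0.528 ± 0.022 and 0.849 ± 0.101 (SD, n = 3 each). A two-sided exact permutation test over the 20 ways to divide 6 libraries gave p = 0.1, the smallest that 3 against 3 allows, and the ratio was chosen after its values were seen.

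**Figure D3:**
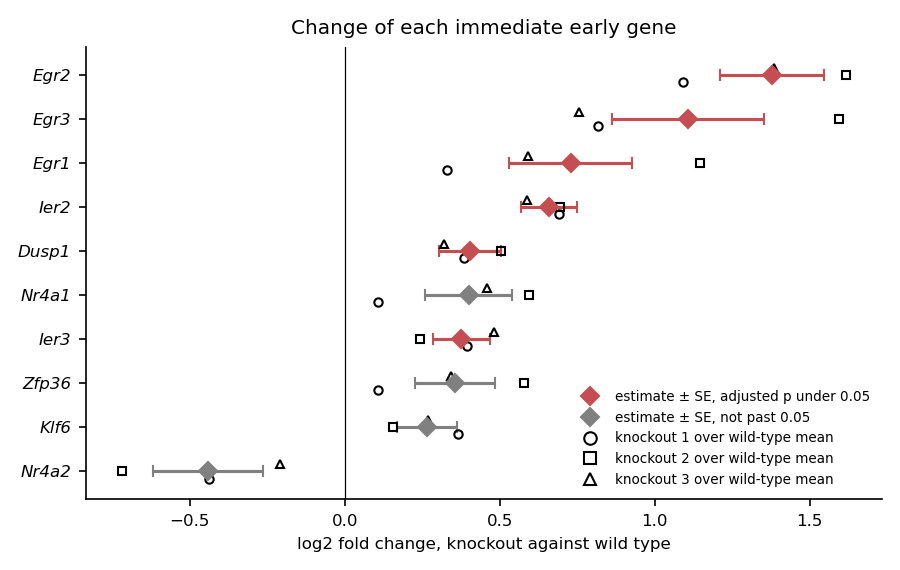
Log2 fold change of knockout against wild type for each gene, with diamonds and bars for the edgeR estimate ± SE and open symbols for each knockout library over the wild-type mean. Egr2 (1.38), Egr3 (1.11) and Egr1 (0.73) lie farthest to the right, Nr4a2 (-0.44) is the only gene left of 0, and the square of knockout replicate 2 lies to the right of the other knockout libraries for all 3 Egr genes.

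The Nr4a genes encode nuclear receptors whose activity is set mainly by how much of them is made, since they work without a classical ligand. The estimates for the 2 measured here had opposite signs, and neither passed the test. Nr4a1 was at 17.0, 18.9 and 17.0 CPM in wild-type, against 19.0, 26.6 and 24.3 CPM in knockout replicates 1, 2 and 3. Knockout replicate 1 lay only 0.115 CPM above the highest wild-type library, while the other knockout libraries were clearly higher. The log2 fold change was 0.40 (SE 0.14, edgeR adjusted p = 0.0527), 0.52 without knockout replicate 1, where it passed (adjusted p = 0.00513), and 0.24 without knockout replicate 2 (adjusted p = 0.148). With only the libraries under 40% unmapped pairs, which leaves knockout replicate 1 alone in its group, it was 0.04, and with the unmapped share as a covariate 0.14. Nr4a1 lies at chromosome 15, 101254269 to 101274795, plus strand.

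Nr4a2, known for its part in dopamine neurons and also induced in stromal and immune cells, was at 6.32, 7.34 and 6.04 CPM in wild-type, against 4.85, 3.99 and 5.68 CPM in knockout replicates 1, 2 and 3. It was the only one of the 10 with lower values in knockout tumors, and knockout replicate 2, highest for Nr4a1, was lowest here. The log2 fold change of -0.44 (SE 0.18) did not pass the test (edgeR adjusted p = 0.0823) and did not pass in any of the 15 alternatives, where it lay between -0.57 and -0.37. The gene had low counts, 101 to 277 read pairs per library. It lies at chromosome 2, 57106830 to 57124003, minus strand.

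The ratio of Nr4a1 to Nr4a2 per exonic length was 3.12, 2.98 and 3.26 in wild-type and 4.53, 7.72 and 4.94 in knockout replicates 1, 2 and 3. All knockout libraries lay above all wild-type libraries, with means of 3.12 ± 0.139 and 5.73 ± 1.73 (SD, n = 3 each). The mean difference of the log2 ratio was 0.84, and 0.60 without knockout replicate 2. The two-sided exact permutation p was again 0.1, the smallest possible, and this ratio too was chosen after its values were seen. The remaining gene of the family, Nr4a3, was at 3.91 CPM ± 0.57 in wild-type tumors and 3.38 CPM ± 0.86 in those with the knockout (n = 3 each, SD), with overlapping libraries (edgeR adjusted p = 0.481).

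Ier2 and Ier3 are short genes with few or no introns whose products are not related to each other. Ier2, a small nuclear protein, was at 86.7, 77.6 and 89.5 CPM in wild-type, against 136.8, 136.8 and 127 CPM in knockout replicates 1, 2 and 3. Relative to its mean, it had the tightest knockout libraries of the 10, and the gap between the groups was 37.6 CPM. Its log2 fold change was 0.66 (SE 0.09, edgeR adjusted p = 0.000851), from a mean of 84.6 ± 6.22 to 133.6 ± 5.56 CPM (SD, n = 3 each), and it passed in all 15 alternatives, between 0.57 and 0.74. Ier2 lies at chromosome 8, 84661331 to 84662852, minus strand.

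Ier3, a stress-induced protein that affects cell survival and ERK signalling, was at 149.9, 151 and 158 CPM in wild-type, against 201.2, 181 and 214 CPM in knockout replicates 1, 2 and 3. Here knockout replicate 2 was the lowest of its group, not the highest. The rise was 1.30-fold, a log2 fold change of 0.38 (edgeR, with SE 0.09 and adjusted p = 0.0134). The call was lost when wild-type replicate 1, 2 or 3 or knockout replicate 3 was left out (adjusted p = 0.0859, 0.0832, 0.0858 and 0.0523), and when no filter on low counts was used (adjusted p = 0.166). Ier3 lies at chromosome 17, 35821684 to 35822923, plus strand.

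Among the members that switch signals off, Dusp1, a phosphatase of the p38, JNK and ERK kinases, was at 35.3, 41.6 and 38.9 CPM in wild-type, against 50.4, 54.7 and 48.2 CPM in knockout replicates 1, 2 and 3. The spread was alike in both groups, with SDs of 3.17 and 3.32 CPM. The estimate for Dusp1 was 0.40 on the log2 scale (SE 0.10, edgeR adjusted p = 0.0137), a 1.32-fold rise. It did not pass when wild-type replicate 1, 2 or 3 was left out (adjusted p = 0.130, 0.0517 and 0.0808), or when no filter on low counts was used (adjusted p = 0.121). The annotated gene runs from 26505590 to 26562128 on chromosome 17, minus strand, and 0.33% of its exonic bases are shared with Ergic1.

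Zfp36, or tristetraprolin, binds AU-rich elements and recruits the deadenylation machinery. It was at 34.2, 32.4 and 36.8 CPM in wild-type, against 37.1, 51.5 and 43.7 CPM in knockout replicates 1, 2 and 3. As for Nr4a1, knockout replicate 1 was almost level with the highest wild-type library, 0.317 CPM above it. The log2 fold change of 0.35 (SE 0.13) did not pass (edgeR adjusted p = 0.0597). It passed without knockout replicate 1, at 0.46 (adjusted p = 0.00980), and was 0.18 without knockout replicate 2 (adjusted p = 0.188), 0.13 after adding the unmapped share as a covariate and 0.04 with only the libraries under 40% unmapped pairs. Exons of Gm44710 cover 3.60% of its exonic bases, and the gene lies at chromosome 7, 28376784 to 28380253, minus strand.

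Klf6, a zinc finger factor of the Krüppel-like family, was the gene with the most counts of the 10. It stood at 211, 189 and 219 CPM in wild-type, against 266, 230.0 and 248 CPM in knockout replicates 1, 2 and 3. The knockout libraries were all higher, by 11.0 CPM at the nearest. The log2 fold change of 0.27 (SE 0.10) did not pass (edgeR adjusted p = 0.0610), but did with the unmapped share as a covariate, at 0.36 (adjusted p = 0.0303). Klf6 lies at chromosome 13, 5861482 to 5870394, plus strand.

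The knockout libraries differed among themselves in a way most of the 10 genes shared. Knockout replicate 2 was the highest of its group for 7 of the 10 genes, where it was the highest for 42.7% of all genes tested. Among the 7, for Ier2 it was almost level with replicate 1, both at 136.8 CPM. The exceptions were Nr4a2, Ier3 and Klf6, for which it was the lowest. In the wild-type group, replicate 3 was the highest for 7 of the 10, against 32.6% of all genes tested. Among these 7, for Egr3 it was almost level with replicate 1, both at 6.63 CPM. The SD was larger among knockout than among wild-type libraries for 9 of the 10, the exception being Ier2, and for 79.0% of all genes tested. Relative to the mean, as the coefficient of variation, the spread was larger among knockout libraries for 7 of the 10 and for 78.4% of all genes tested.

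Over the 6 libraries, the genes nearest to the mean pattern of the 10 were Lnx2, Miip, Nup93, Aspscr1 and Fam160a1, out of 13489 genes with a mean of at least 2 CPM. Likeness was the root mean square distance between log2 levels centred for each gene, which was 0.026 for Lnx2 and 0.042 to 0.045 for the other 4. Lnx2 was at 20.2, 20.6 and 22.4 CPM in wild-type, against 28.3, 32.8 and 30.2 CPM in knockout replicates 1, 2 and 3. Its high replicate 2 follows from the choice by likeness, since the mean pattern is also highest there. These are 5 genes that track the groups and libraries in this way, none of them an immediate early gene of the lists used here.

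The AP-1 genes, whose Fos, Jun and Atf3 products pair on the AP-1 site, are induced by much the same signals. Of 10 tested, 5 rose and none passed as lower in edgeR, where 2 were lower at an unadjusted p under 0.05 and DESeq2 called 1 lower. The median log2 fold change was 0.28, and of all genes tested 17.6% were called higher and 18.4% lower. Junb rose from a mean of 342 ± 30.7 to 700 ± 54.2 CPM and Fos from a mean of 24.1 ± 1.89 to 46.2 ± 2.62 CPM (SD, n = 3 each), with log2 fold changes of 1.03 and 0.94. Jund (0.88, with 52.6% of its exonic bases shared with Gm11175), Atf3 (0.61) and Fosb (0.63) also rose. Jun, a central AP-1 subunit, was at 155 CPM ± 5.60 and 138 CPM ± 14.98 and did not pass (edgeR adjusted p = 0.218). The number lower was 2 without knockout replicate 1 and 1 without knockout replicate 2 or wild-type replicate 3.

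Of 25 further immediate early genes, 24 were tested, 10 rose and 4 fell, with a median log2 fold change of 0.13. Among all genes tested, 17.6% were called higher and 18.4% lower, so the share that fell is near that of all genes. Ccn2, a matrix-associated growth factor regulator, rose most, from a mean of 65.6 ± 8.92 to 214 ± 27.9 CPM (SD, n = 3 each; edgeR log2 fold change 1.70, adjusted p = 4.53e-05), and 23.2% of its exonic bases are shared with Gm15270. The kinase gene Sik1 rose by 0.93, Nfkbiz, a nuclear NF-kappaB regulator, by 0.68, and Myc by 0.67 on the log2 scale. The genes that fell were Klf10, Ier5l, the clock gene Per1 and the survival gene Mcl1, which dropped by 0.60. Without wild-type replicate 2 or knockout replicate 3 the number that fell was 2. Egr4, the fourth Egr gene, was not tested, with 0 to 6 read pairs per library.

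**Figure D4:**
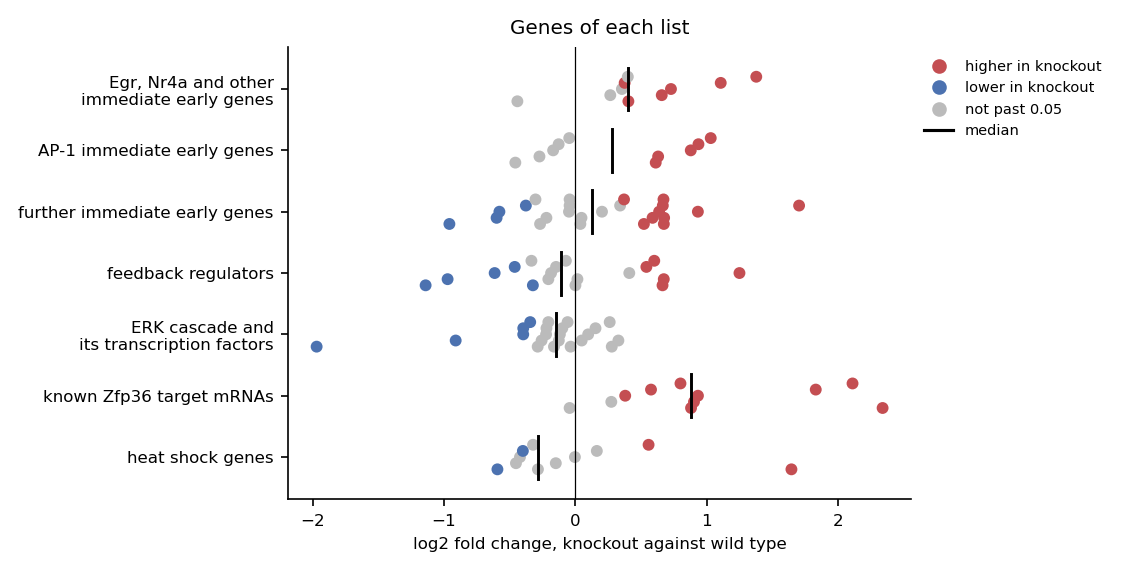
Log2 fold changes of the tested genes of each list, with 1 point per gene coloured by call and a black line at the list's median. The 10 immediate early genes have a median of 0.40 and the known Zfp36 target mRNAs of 0.88, while the ERK cascade list has a median of -0.14 and no gene called higher.

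The kinases and transcription factors that carry such signals had a median log2 fold change of -0.14. Of 22 genes of the ERK cascade and its transcription factors, 5 fell and 17 did not pass. The share that fell is near the 18.4% of all genes tested that were called lower. None was called higher in edgeR, where 3 were higher at an unadjusted p under 0.05, and DESeq2 called 0. Rps6ka5, the kinase MSK1 that phosphorylates CREB and histone H3 at immediate early genes, fell from a mean of 48.6 ± 2.96 to 12.4 ± 2.598 CPM (SD, n = 3 each; edgeR log2 fold change -1.97, adjusted p = 3.96e-05). Rps6ka3, the related kinase RSK2, fell by 0.91 on the log2 scale, and Atf1 and Elk1, a CREB relative and a ternary complex factor, by 0.40 and 0.34. Map2k1 was the remaining gene that fell. Srf was at 74.4 CPM ± 3.36 in wild-type tumors and 89.2 CPM ± 7.29 in those with the knockout and did not pass (edgeR adjusted p = 0.0541). The number that fell was 3 without any 1 of the wild-type replicates or knockout replicate 3, and 10 without knockout replicate 1, where 3 rose.

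Feedback regulators moved both ways, 5 higher and 5 lower of 18, with a median log2 fold change of -0.11. Among all genes tested, 17.6% were called higher and 18.4% lower. Dusp6, a phosphatase specific for ERK, fell from a mean of 338 ± 38.6 to 172 ± 4.96 CPM (SD, n = 3 each; edgeR log2 fold change -0.97, adjusted p = 0.000215), while Dusp1 rose. Spred3, an inhibitor of Ras signalling, fell by 1.14, and Dusp8 and Dusp16, phosphatases of JNK and p38, rose by 1.25 and 0.66. Dusp4, Dusp5 and Spry4 also rose, by 0.60, 0.67 and 0.54, and 22.1% of the exonic bases of Dusp5 are shared with AC137853.2. Spry2, Spred1 and Spred2 also fell, by 0.32, 0.61 and 0.46. Whether direction goes with the kinase that a phosphatase acts on was not tested. The Egr corepressor genes Nab1 and Nab2 did not pass, and neither did the Zfp36 relatives Zfp36l1 and Zfp36l2. Without any 1 of the wild-type replicates or knockout replicate 3, the number lower was 3.

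Known mRNA targets of Zfp36 rose for 9 of 11. None was lower in edgeR, also at an unadjusted p under 0.05, or in DESeq2. Their median log2 fold change was 0.88, and of all genes tested 17.6% were called higher and 18.4% lower. Lif, a cytokine of the interleukin-6 family, rose from a mean of 25.3 ± 1.32 to 48.4 ± 5.44 CPM (SD, n = 3 each; edgeR log2 fold change 0.93, adjusted p = 0.000352), and Il23a rose by 0.88. The neutrophil attractant gene Cxcl1 rose by 2.11, and Il10 rose from a mean of 0.333 ± 0.158 to 1.70 ± 0.075 CPM (SD, n = 3 each). The remaining genes that rose were Tnf, Il1b, Cxcl2, Ccl3 and Csf2, while Il6 and Ptgs2 did not pass. Counts were low for Il10, at 6 to 17 read pairs per wild-type library, and for Csf2, at 10 to 18. Gm12223 shares 12% of the exonic bases of Csf2. The number that rose was 6 to 8 with 1 library left out.

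Heat shock genes, which rise when tissue is stressed during handling and also in living tumors, were 2 higher and 2 lower of 11, with a median log2 fold change of -0.28. These shares are near those of all genes tested, 17.6% higher and 18.4% lower. Hspa1b rose from a mean of 60.3 ± 3.60 to 189 ± 19.9 CPM (SD, n = 3 each; edgeR log2 fold change 1.65, adjusted p = 1.42e-05). Its near-identical copy Hspa1a, with means of 5.56 and 4.06 CPM, did not pass, and the copies share sequence that unique mapping cannot assign, so both are uncertain. Dnajb1 rose by 0.56, and Hsph1 and Dnaja1 fell by 0.40 and 0.59. The number lower was 5 without knockout replicate 1 or knockout replicate 2, and 1 without any 1 of the wild-type replicates or knockout replicate 3. The part of tissue handling in the immediate early genes was not tested.

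Markers of several cell types differed between the groups and among the knockout libraries. The 5 epithelial markers were present in all libraries, with sums of 2698 to 2829 CPM in wild-type tumors and 4523 to 4803 CPM in those with the knockout, and 4 rose. Of 7 fibroblast markers, 6 rose and Pdgfra fell, with sums of 3162 to 4023 CPM and 5338, 10471 and 6942 CPM in knockout replicates 1, 2 and 3, so that replicate 2 was highest as for the Egr genes. The 5 adipocyte markers all rose, from 50.2 to 85.0 CPM up to 189, 471 and 236 CPM in knockout replicates 1, 2 and 3, in the same order. All 5 keratinocyte markers rose, with sums of 69.5 to 123 CPM in wild-type and 944, 1571 and 712 CPM in the knockout replicates. Krt14 alone was at 815, 1009 and 630 CPM in those replicates. Each of the 5 was highest in knockout replicate 2. Krt10 was at 146 CPM there but at 20.0 CPM in knockout replicate 3, below the 23.6 CPM of wild-type replicate 2. Krt1 and Lor were at 19.2 and 9.42 CPM in knockout replicate 3, near the 17.5 and 8.32 CPM of wild-type replicate 2.
The 7 macrophage markers all fell, from 4765 to 5593 CPM down to 794 to 955 CPM. All 4 tested of 5 natural killer cell markers fell too, from 33.5 to 45.6 CPM down to 0.830 to 1.20 CPM. The 6 endothelial markers overlapped in sum, at 199 to 276 CPM in wild-type tumors and 188 to 263 CPM in those with the knockout, and 1, Emcn, rose. The 6 neutrophil markers summed to 212 to 257 CPM in wild-type tumors and 288 to 407 CPM in those with the knockout. Of the 5 tested, S100a9 and Csf3r rose, with Ly6g, Mpo and Elane under 1 CPM in all libraries. Of 5 skeletal muscle markers, 4 rose, with sums of 38.4 to 47.3 CPM and 48.8 to 57.4 CPM. T cell markers summed to 3.06 to 3.84 CPM and 1.94 to 4.26 CPM, with Cd3d, Cd3g and Cd8a under 1 CPM in all libraries, and none of 3 tested passed in edgeR, none at an unadjusted p under 0.05. The part of these cell types in the immediate early genes was not tested.

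**Figure D5:**
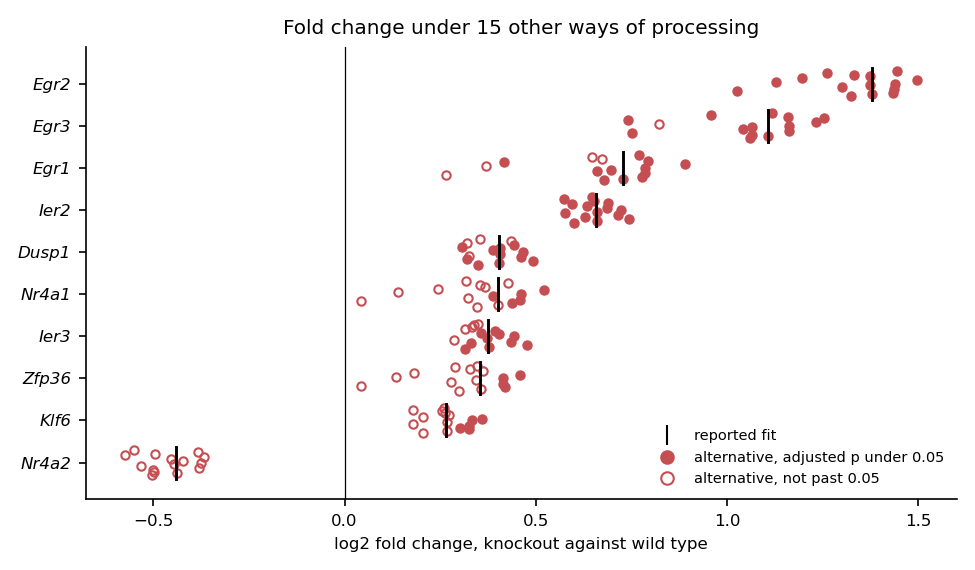
Log2 fold change of each gene in the reported fit (black line) and in 15 alternative analyses (circles, filled where the adjusted p is under 0.05). Egr2 and Ier2 have filled circles only, Nr4a2 has open circles only, and no gene crosses 0.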

How the data were processed

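RNA-seq of 6 libraries was analysed. Each deposited file lists raw counts for every gene, in the layout of STAR's gene counts. STAR 2.6.0c, FastQC, DESeq2 and GRCm38 are named in the submitters' processing notes, and the annotation release is not given in the sources used here. The unstranded column was used, so sense and antisense reads cannot be separated. The 4 rows that name no gene stayed out of library sizes and tests. Of 54146 gene rows, 54079 were matched by identifier to GENCODE M21 on the same build, and 4 list symbols were updated through RefSeq synonyms (Ccn1, Ccn2, Mrtfa, Mrtfb).

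The test was edgeR's quasi-likelihood test (edgeR 4.0.16, R 4.3.3) after filterByExpr and TMM scaling, with Benjamini-Hochberg adjustment. The SE is the absolute log2 fold change over the square root of F. The script was tested on simulated data. The 10 genes and the lists were chosen with earlier results of these data known. The rule names all 10 genes, Mki67, the 4 smallest p in each list, cell type markers and the 5 genes nearest in pattern. Other list genes were named after their values were seen. Alternatives were DESeq2 1.42.0, RLE factors, library totals, 2 other filters, a stranded column, the unmapped share, only libraries under 40% unmapped pairs, a replicate block and each replicate left out.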

Additional observations from a re-analysis of the deposited data

How the results depend on the processing

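All 10 genes kept their direction in the 15 alternative analyses. The calls of Egr2 and Ier2 held in all of them, and Nr4a2 passed in none. The number of the 10 genes called higher ranged from 3 to 8 with 1 library left out and from 4 to 9 otherwise, and the number called lower stayed at 0. Nr4a1, Klf6 and Zfp36 passed with library totals alone (adjusted p = 0.0368, 0.0284 and 0.0354), the stricter filter (0.0238, 0.0291 and 0.0211) and the stranded column (0.0370, 0.0363 and 0.0320), and Klf6 with the libraries under 40% unmapped pairs (0.0324). In all, 7158 genes were called, and 4078 to 9301 with 1 library left out, of which 1821 to 4648 were higher and 2257 to 4778 lower. With the unmapped share as a covariate 2333 were higher, against 3506. Deviations of wild-type and knockout libraries of the same number had correlations across genes of 0.14, -0.03 and -0.15. Libraries of different numbers had correlations from -0.14 to 0.17. With 3 libraries per group, these values cannot tell whether libraries of the same number share a batch, and the labels do not say. With the replicate number as a block, 6662 genes and 7 of the 10 were called, the added one being Nr4a1 (adjusted p = 0.0473). Among the lists, the AP-1 genes called lower numbered 1 in DESeq2, with the stranded column, without a filter and with the block, 2 with the unmapped share or only libraries under 40% unmapped, and 0 to 2 with 1 library left out. ERK cascade genes called higher numbered 1 with RLE factors, 2 with library totals, 3 with the stricter filter, 3 with the stranded column and 0 to 3 with 1 library left out, and those lower 3 with the stranded column, 9 with libraries under 40% unmapped and 3 to 10 with 1 library left out. Feedback regulators called lower numbered 3 with library totals or the stricter filter, 8 with the unmapped share, 9 with libraries under 40% unmapped and 3 to 6 with 1 library left out. Heat shock genes called lower numbered 4 without a filter, with the block and with libraries under 40% unmapped, and 1 to 5 with 1 library left out. Further immediate early genes called lower numbered 8 with libraries under 40% unmapped and 2 to 6 with 1 library left out. The cause of these shifts was not tested. The setting of libraries under 40% unmapped leaves 1 knockout library, assumed to vary like the wild-type group.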
